A study of Mus musculus with 8 samples.

Results

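The unfolded protein response and the secretory machinery it serves were read in the intestinal crypts of mice with and without Mex3a, through 44 genes chosen by symbol from a list of 55114 annotated genes. They were 4 stress sensors, 34 genes of the XBP1/ATF6 branch (Xbp1 itself, folding enzymes, translocation subunits and degradation factors), the transcription factor Creb3l1, and 5 genes of the ATF4 branch. All 44 passed the filter on low counts, and 16109 genes were tested in all. A second annotated row named Ddit3 had no read in any mouse and was not used.

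Total RNA of crypt cells, shaken off the intestine after EDTA treatment, was sequenced from 8 C57BL/6 mice, each 8 weeks old. The 4 knockout mice (Mex3a-/-, KO1 to KO4) carried a constitutive deletion, in all tissues, of the first exon of Mex3a and part of the next one, and the 4 littermate controls (labelled Ctrl, here WT1 to WT4) did not. Sex, litter and the stretch of intestine were not given in the sources used here. Assigned reads numbered 20324184 to 24726221 per control and 23489180 to 30654105 per knockout library. Mex3a, which encodes an RNA-binding protein, had 269, 236, 327 and 328 reads in WT1 to WT4 and 20, 28, 6 and 8 reads in KO1 to KO4, so every library matched its label. Levels are given as read counts scaled to library size by TMM (CPM), which compare 1 gene between mice, and as the deposited FPKM, which also divide by gene length and compare genes.

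Secretory cells load their endoplasmic reticulum (ER) with unfolded protein, and sensors in the ER membrane answer an overload. IRE1 splices Xbp1 mRNA, ATF6 is cut in the Golgi to release a transcription factor, and both raise ER chaperones, oxidoreductases, translocation and ER-associated degradation genes. PERK slows translation and favours ATF4, which raises amino acid supply genes and the stress factor CHOP. In the crypt, Paneth and goblet cells make secretory protein in bulk, and IRE1β (Ern2) is a form of the sensor restricted to mucosal epithelium.

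DNA elements near the start of many target genes differ by branch, and they are shown because the XBP1/ATF6 branch was set against the ATF4 branch. Promoters of 35 of the 44 genes, from 250 bases before to 50 after the gene start, were taken from RefSeq on GRCm38.p6 and searched on both strands. The ER stress response element (ERSE, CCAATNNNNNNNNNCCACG), at which ATF6 and XBP1 act, was present in 39 of 32851 promoters (0.119%) and in 9 of the 35 (25.7%). They were Calr, Canx, Creld2, Derl3, Dnajc3, Hsp90b1, with a second copy, Hspa5, Pdia6 and Syvn1. ERSE-II (ATTGG, 1 base of any kind, then CCACG), a shorter form, was present in 12 promoters (0.0365%) and in those of Dnajb11 and Herpud1. The amino acid response element (CARE, TGATGNAA), bound by ATF4 with a C/EBP protein, was present in 1304 promoters (3.97%) and in those of Asns, Chac1, Herpud1 and Trib3. Thus 3 of the 5 ATF4 branch promoters and 1 of 28 XBP1/ATF6 branch promoters held CARE, and Herpud1 held both CARE and ERSE-II. Neither ERSE nor ERSE-II was present in 24 of the 35 promoters. Capitals mark the fixed bases of each element, with 5 flanking bases on either side, read 5′ to 3′ on the strand that holds the match.
Hspa5 ERSE (chr2:34772020-34772048, plus strand): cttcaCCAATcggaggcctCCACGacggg
Hsp90b1 ERSE (chr10:86705528-86705556, plus strand): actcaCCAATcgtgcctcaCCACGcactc
Hsp90b1 ERSE (chr10:86705633-86705661, minus strand): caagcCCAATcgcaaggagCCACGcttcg
Calr ERSE (chr8:84847070-84847098, plus strand): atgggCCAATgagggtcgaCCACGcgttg
Creld2 ERSE (chr15:88819515-88819543, minus strand): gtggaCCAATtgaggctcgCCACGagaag
Pdia6 ERSE (chr12:17266486-17266514, plus strand): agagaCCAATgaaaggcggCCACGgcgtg
Derl3 ERSE (chr10:75893237-75893265, minus strand): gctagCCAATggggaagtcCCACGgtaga
Dnajb11 ERSE-II (chr16:22857847-22857867, plus strand): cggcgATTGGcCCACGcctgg
Herpud1 ERSE-II (chr8:94386372-94386392, plus strand): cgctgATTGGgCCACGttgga
Asns CARE (chr6:7693220-7693237, minus strand): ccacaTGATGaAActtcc
Chac1 CARE (chr2:119351044-119351061, minus strand): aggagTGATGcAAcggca
Herpud1 CARE (chr8:94386312-94386329, minus strand): cgggcTGATGcAAcccgc
Trib3 CARE (chr2:152344034-152344051, plus strand): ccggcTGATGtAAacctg
The Hspa5 element began 65 bases before the RefSeq start, and that of Trib3 began 14 bases after it. These matches are letters in a window of DNA and were not tested for binding.

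The set was expressed over a wide range, from the disulfide isomerase P4hb to the pseudokinase Trib3. In FPKM, the highest were P4hb (345 ± 11.2 in WT and 399.6 ± 58.2 in KO mice, mean ± SD, n = 4 each), the lectin chaperone Calr (286 ± 53.6 and 287 ± 54.4) and Pdia3 (216 ± 38.7 and 228 ± 37.0). Hspa5, Hsp90b1 and Atf4 followed, with means over the 8 mice of 195, 131 and 124 FPKM. The lowest were Trib3, the derlin Derl3 and the glutathione-degrading enzyme Chac1, with means of 0.999, 1.08 and 1.85 FPKM. The mucosal sensor Ern2 was above its ubiquitous relative Ern1 in each of the 8 mice, by the smallest ratio in WT2, at 11.1 against 8.96 FPKM, and by the largest ratio in WT4, at 22.2 against 9.83 FPKM.

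**Figure D1:**
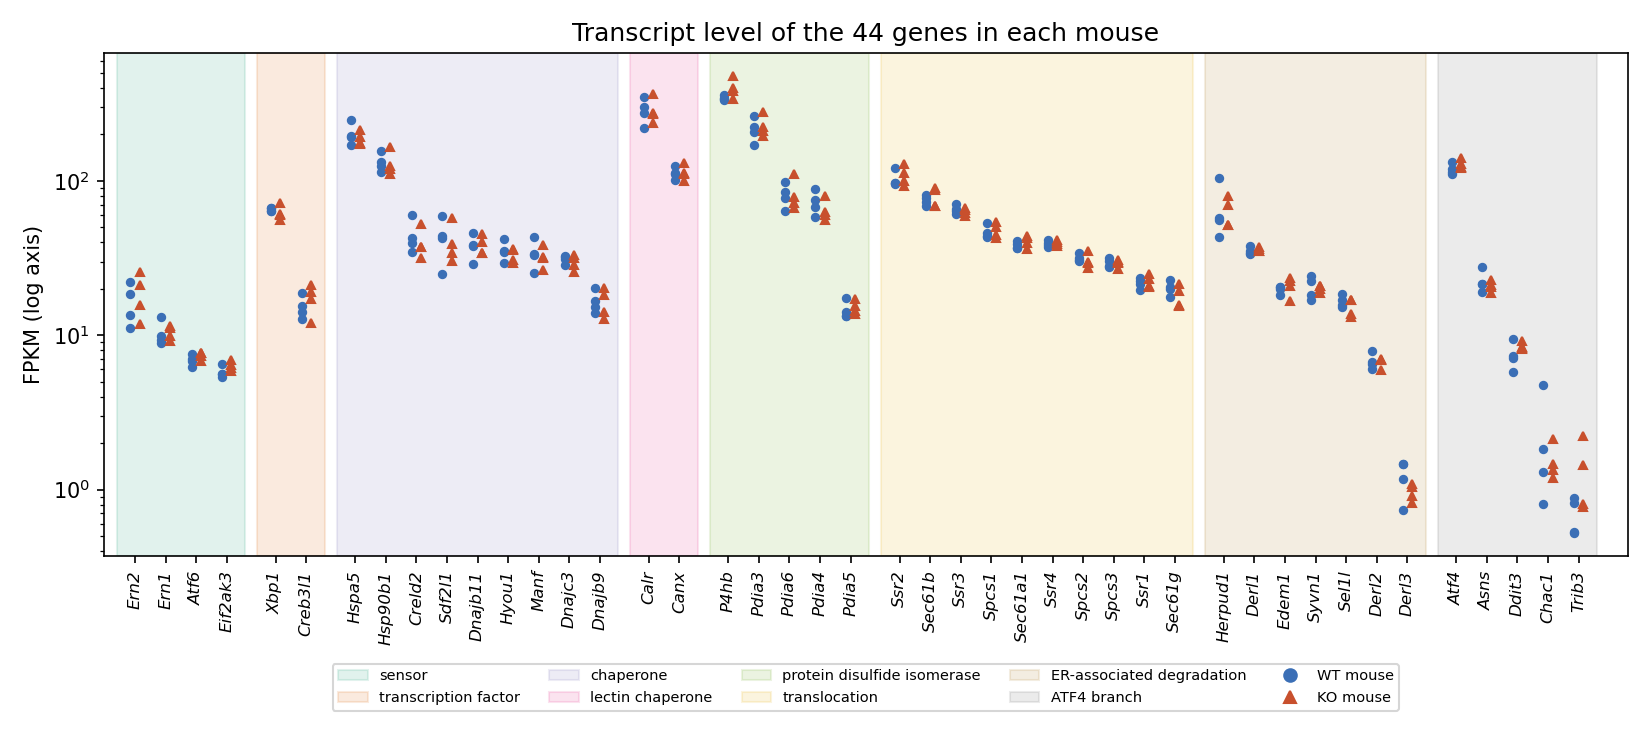
Deposited FPKM (log axis) of the 44 genes in each mouse, grouped by role and sorted by mean within a role, with circles for the 4 WT and triangles for the 4 KO mice. P4hb is highest at a mean of 372 FPKM and Trib3 lowest at 0.999 FPKM, and the genotypes overlap in every gene.

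Loss of Mex3a was compared with the controls gene by gene, with edgeR's quasi-likelihood test fitted on all tested genes. None of the 44 genes passed an adjusted p of 0.05 (smallest adjusted p = 0.572), where 0.00621% of all genes did, Mex3a alone. At an unadjusted p under 0.05 the count was 1 of 44, Trib3, which was higher in KO mice, against 8.38% of all genes (5.33% higher and 3.05% lower). DESeq2 also gave 0 of the 44 by adjusted p (93 of all 16109 genes), with Trib3 under 0.05 unadjusted (1463 of all genes). In no gene did the 4 KO mice all lie above or all below the 4 WT mice, which 4.05% of all genes showed. The log2 fold changes, KO over WT, were positive for 21 and negative for 23 genes, with a median of -0.0016 against -0.016 over all genes tested. The data also bounded the differences in this fit, which leaves out the replicate number. The 95% interval lay within ±0.5 on the log2 scale for 34 of the 44 genes and within ±1 for 42, against 7989 and 12273 of the 16109 genes tested. The exceptions to the wider bound were Trib3 and Chac1. Since whole crypts were sequenced, fewer cells of a type and less RNA per cell cannot be told apart in any of these values.

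**Figure D2:**
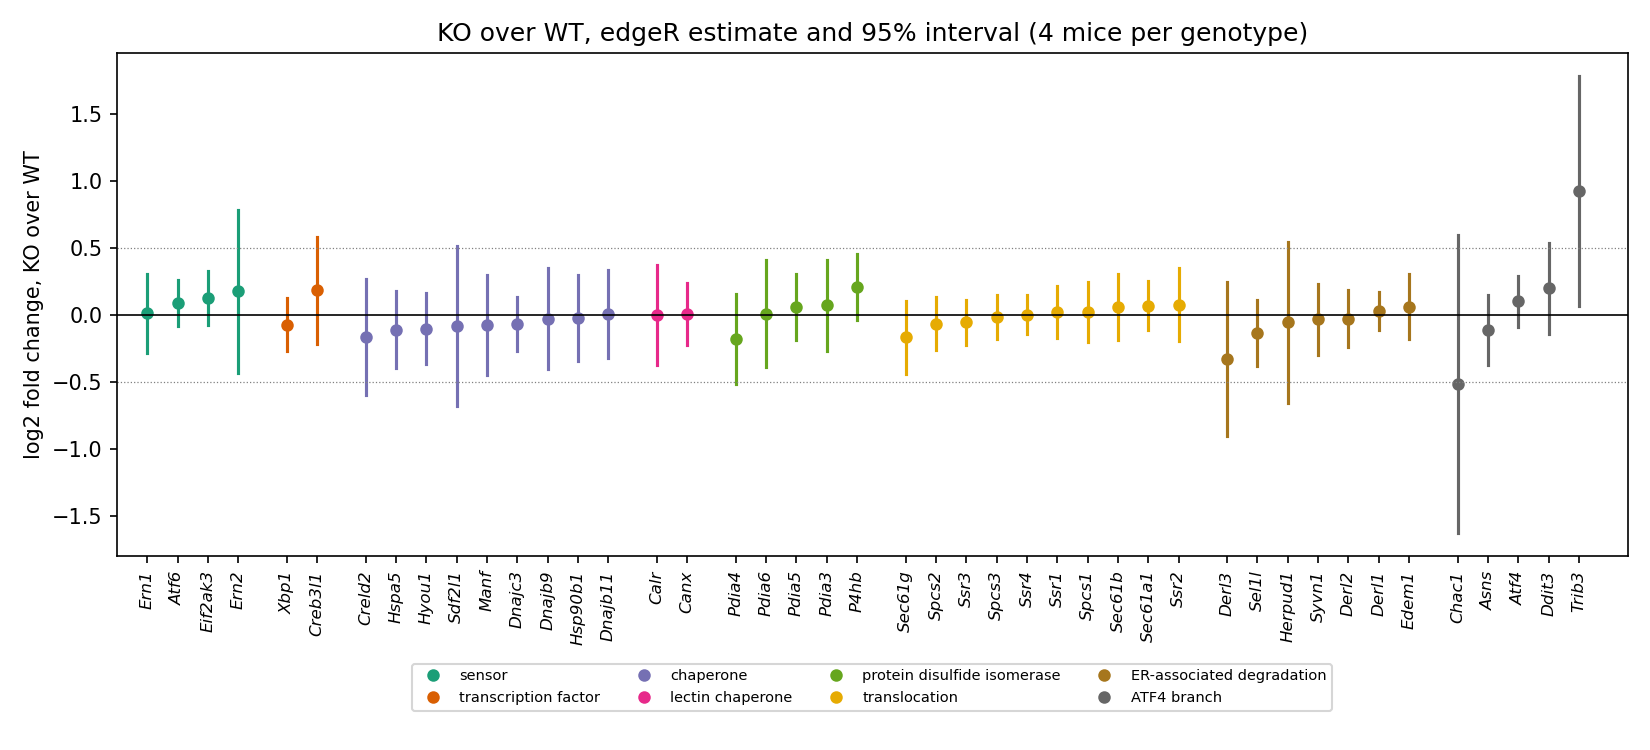
Log2 fold change, KO over WT, of the 44 genes by role, with bars for the 95% interval of the edgeR fit on 4 mice per genotype and dotted lines at ±0.5. The values run from -0.52 (Chac1) to 0.92 (Trib3), and the interval of Trib3 alone leaves out 0.

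The sensors of the response did not differ by genotype beyond the spread between mice. All 4 had positive log2 fold changes, between 0.0093 and 0.17, and none passed the test (smallest unadjusted p = 0.209, edgeR). With a mouse left out, 2 (without KO4) to 4 of them were positive. Ern1, the ubiquitous IRE1, had 108, 73.8, 76.5 and 81.1 CPM in WT1 to WT4 and 75.2, 91.4, 81.6 and 93.7 CPM in KO1 to KO4. WT1 was the highest mouse and the other WT mice lay inside or just below the KO range (log2 fold change 0.01, 95% interval -0.28 to 0.30). Ern2 spread more, with 55.4, 33.1, 40.2 and 66.4 CPM in WT1 to WT4 and 35.0, 46.4, 62.7 and 75.8 CPM in KO1 to KO4 (log2 fold change 0.17, 95% interval -0.43 to 0.78). Its lowest mice were WT2 and KO1 and its highest were KO4 and WT4, so that the spread within a genotype exceeded the distance between them. Atf6, whose product is the membrane-bound precursor of a transcription factor, had 64.0, 57.8, 65.0 and 70.2 CPM in WT1 to WT4 and 63.0, 70.7, 71.4 and 67.4 CPM in KO1 to KO4 (log2 fold change 0.08, 95% interval -0.09 to 0.26). Eif2ak3, which encodes PERK, had 34.3, 34.2, 32.5 and 39.7 CPM in WT1 to WT4 and 35.2, 37.1, 41.8 and 38.9 CPM in KO1 to KO4 (log2 fold change 0.12, 95% interval -0.08 to 0.32). For both, 3 of the 4 highest mice were KO mice and the other was WT4, so the genotypes overlapped.

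The transcription factors downstream did not separate either. Xbp1 (ENSMUSG00000020484, chr11:5520659-5525893, plus strand, GRCm38), the splicing target of IRE1, had 220.3, 207, 208 and 219 CPM in WT1 to WT4 and 181, 199, 236 and 196 CPM in KO1 to KO4. The WT mice kept within a narrow band and KO mice fell on both sides of it (214 ± 6.99 and 203 ± 23.2 CPM, log2 fold change -0.07, 95% interval -0.27 to 0.12). Gene-level counts do not separate the spliced from the unspliced form, so IRE1 activity was not read here. Creb3l1, a membrane-bound factor related to ATF6 that is used by secretory cells, had 33.4, 40.5, 37.2 and 49.0 CPM in WT1 to WT4 and 31.1, 44.8, 55.6 and 49.8 CPM in KO1 to KO4. The mice numbered 1 were lowest and KO3 highest, with overlap of the genotypes (log2 fold change 0.18, 95% interval -0.22 to 0.58). Without KO1 its log2 fold change was 0.32 with an unadjusted edgeR p of 0.0445 (adjusted p = 0.371), and without KO3 it was 0.07.

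Chaperones of the ER lumen, the classical targets of ATF6 and XBP1, had negative log2 fold changes in 8 of 9 genes, where 53.9% of all genes were negative, but none passed the test (median -0.079, range -0.17 to 0.0045, smallest unadjusted p = 0.391). The signs rested on WT2 above all, since without it 3 of 9 were negative, and without KO4 5 of 9 were. Hspa5 (ENSMUSG00000026864, chr2:34771970-34777547, plus strand), which encodes BiP, the main ER chaperone and a brake on the sensors, had 732, 1062, 829 and 825 CPM in WT1 to WT4 and 743, 903, 811 and 733 CPM in KO1 to KO4. WT2 was the highest mouse and KO2 the next, while WT1 was the lowest, and the genotypes overlapped (862 ± 141 and 798 ± 78.5 CPM, log2 fold change -0.11, 95% interval -0.40 to 0.17). The same mice led for Hsp90b1, the ER form of HSP90, with 469.6, 631, 535 and 510.3 CPM in WT1 to WT4 and 501, 673, 486 and 449 CPM in KO1 to KO4. Sdf2l1, a partner of the BiP cycle, had 28.0, 65.5, 48.5 and 47.4 CPM in WT1 to WT4 and 37.9, 63.9, 43.1 and 33.4 CPM in KO1 to KO4. Creld2, an ER stress-induced disulfide protein, had 47.7, 82.8, 54.4 and 58.9 CPM in WT1 to WT4 and 50.8, 71.8, 50.8 and 43.6 CPM in KO1 to KO4. In Sdf2l1 and Creld2 the distance from the lowest mouse to WT2 was wider than in Hspa5, at 2.34-fold and 1.90-fold against 1.45-fold. Manf, a secreted ER stress protein, had 89.8, 154, 116 and 119 CPM in WT1 to WT4 and 111, 136, 113 and 93.2 CPM in KO1 to KO4. Dnajb11, a co-chaperone of BiP, had 95.2, 151, 123 and 125 CPM in WT1 to WT4 and 109.7, 146, 129.6 and 110.0 CPM in KO1 to KO4. Dnajb9, another co-chaperone and an IRE1 target, went otherwise: WT1 and KO4 were its highest mice, at 52.6 and 51.9 CPM, and KO2 its lowest, at 32.3 CPM. Dnajc3 and Hyou1 had log2 fold changes of -0.07 and -0.11.

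No gene of glycoprotein folding or disulfide formation passed the test. The lectin chaperones Calr and Canx, which hold newly glycosylated proteins, had log2 fold changes of -0.0017 and 0.0035, with intervals of -0.37 to 0.37 and -0.23 to 0.24. Calr had 645, 1013, 865 and 795 CPM in WT1 to WT4 and 776, 1052, 798 and 687 CPM in KO1 to KO4, with KO2 and WT2 on top and WT1 at the bottom. Of the 5 protein disulfide isomerases, 4 had positive and 1 a negative log2 fold change (median 0.057, smallest unadjusted p = 0.0955, edgeR). Without KO2 the signs turned to 1 positive and 4 negative, and without WT1 to 2 positive and 3 negative. P4hb (chr11:120560298-120573253, minus strand), which is also a subunit of prolyl hydroxylase, had 999.8, 967, 970.0 and 1040.5 CPM in WT1 to WT4 and 972, 1093, 1376 and 1145 CPM in KO1 to KO4. KO3 was well above the others and KO1 lay between the WT mice (994 ± 34.2 and 1146 ± 169 CPM, log2 fold change 0.21, 95% interval -0.04 to 0.45, exact permutation p = 0.0857, two-sided). Without KO1 its log2 fold change was 0.28 with an unadjusted edgeR p of 0.0229 (adjusted p = 0.310), and without KO3 it was 0.11. Pdia4 was on the other side of 0 (log2 fold change -0.18, 95% interval -0.52 to 0.15), with 142, 215, 182 and 165 CPM in WT1 to WT4 and 143, 193, 150.4 and 134 CPM in KO1 to KO4. Pdia3, which works with the lectin chaperones, had 545, 836, 697 and 653 CPM in WT1 to WT4 and 703, 882, 663 and 616 CPM in KO1 to KO4. In Pdia4, as in Pdia3 and Pdia6, WT2 and KO2 were the highest mice and the genotypes overlapped.

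Translocation genes had the smallest median SD between mice of a genotype among the role groups (0.12 on the log2 scale). The 10 genes for subunits of the SEC61 channel, the translocon-associated SSR complex and the signal peptidase had a median log2 fold change of 0.0092, with 5 positive and 5 negative values (2 and 8 without KO2, 7 and 3 without KO4), and all 10 intervals lay within ±0.5. Ssr4 had 129.6, 121, 115 and 124 CPM in WT1 to WT4 and 128, 124, 121 and 117 CPM in KO1 to KO4 (log2 fold change -0.0016, 95% interval -0.15 to 0.14). Its highest and lowest mice differed by 1.13-fold. Sec61g, the small subunit of the channel, had the lowest value of the group (log2 fold change -0.17, 95% interval -0.45 to 0.10) and Ssr2 the highest (log2 fold change 0.07, 95% interval -0.20 to 0.35). Ssr2 and Spcs1 share 12.8% and 16.3% of their exonic bases with genes on the other strand, Gm10704 and Glt8d1, and Hsp90b1 shares 10.3% with 1810014B01Rik. Whether the counting used strand was not given, so their counts are uncertain to that extent.

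ER-associated degradation, which returns misfolded protein to the cytosol, had 5 negative and 2 positive values (median -0.037, smallest unadjusted p = 0.223, edgeR). Without WT1 or without WT2 the signs were 3 negative and 4 positive. Herpud1, a scaffold of the degradation complex whose promoter holds both ERSE-II and CARE, had 249, 131, 101 and 135 CPM in WT1 to WT4 and 162, 120.5, 122 and 187 CPM in KO1 to KO4. WT1 was the highest mouse and WT3 the lowest, and the KO mice fell between them (log2 fold change -0.06, 95% interval -0.66 to 0.54). Derl3, a derlin of secretory cells, had 2.96, 2.34, 1.46 and 2.92 CPM in WT1 to WT4 and 1.64, 1.82, 2.08 and 2.16 CPM in KO1 to KO4. These values rested on 30 to 70 reads per control and 39 to 65 per KO library (log2 fold change -0.33, 95% interval -0.90 to 0.24). Without WT3 its log2 fold change was -0.50 with an unadjusted edgeR p of 0.0438 (adjusted p = 0.777). Derl1, by contrast, had the smallest spread of all 44 genes, 1.12-fold between its highest and lowest mouse. Sel1l and Syvn1, the adaptor and the ubiquitin ligase of the complex, had log2 fold changes of -0.14 and -0.04, and Edem1, which marks glycoproteins for disposal, 0.06.

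The ATF4 branch held values of both signs, 3 positive and 2 negative, though without WT1 all 5 were positive. Trib3 (ENSMUSG00000032715, chr2:152337422-152344032, minus strand), a pseudokinase induced by ATF4 and CHOP that feeds back on both, had 38, 24, 23 and 45 reads in WT1 to WT4 and 39, 44, 110 and 93 reads in KO1 to KO4. Scaled, this was 1.76, 1.12, 1.12 and 1.88 CPM in WT1 to WT4 and 1.64, 1.71, 4.76 and 3.09 CPM in KO1 to KO4. KO3 and KO4 were above every control, while KO1 and KO2 lay within the WT range. The means were 1.47 ± 0.405 and 2.80 ± 1.47 CPM, a fold of 1.90 (95% interval 1.05 to 3.44; log2 fold change 0.92 ± 0.38, SE; unadjusted p = 0.0381, adjusted p = 0.572, edgeR). The exact permutation test over the 8 mice gave p = 0.171 (two-sided; the smallest it can give is 0.0286). Blocking on replicate number gave 0.82 on the log2 scale with an unadjusted p of 0.0564, and leaving out KO3 gave 0.55. The unadjusted call was lost as well without WT2 (0.81), WT3 (0.82) or KO4 (0.87), and in the limma fits on log2(FPKM + 1) and log2(FPKM + 0.1) (0.42 and 0.76).

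Atf4 itself, the transcription factor of the branch, had 318, 272, 283 and 262 CPM in WT1 to WT4 and 331, 293, 286 and 304 CPM in KO1 to KO4 (log2 fold change 0.10, 95% interval -0.09 to 0.29). Ddit3, which encodes CHOP, had 16.3, 12.2, 12.6 and 9.94 CPM in WT1 to WT4 and 14.2, 14.0, 14.4 and 15.8 CPM in KO1 to KO4. The KO mice were close together and WT1 was above them all, with the other controls below (log2 fold change 0.20, 95% interval -0.14 to 0.53). Without WT1 the log2 fold change of Ddit3 was 0.33 with an unadjusted edgeR p of 0.0305 (adjusted p = 0.715). Ddit3 also shares 3.97% of its exonic bases with Mars on the other strand, which had a mean of 1760 reads against its 327.5. Asns, the asparagine synthetase and a standard reader of ATF4, had 76.7, 59.1, 52.0 and 59.4 CPM in WT1 to WT4 and 55.8, 62.5, 51.9 and 58.0 CPM in KO1 to KO4 (log2 fold change -0.12, 95% interval -0.38 to 0.15). Chac1, a target of ATF4 and CHOP, had 7.86, 3.04, 2.15 and 1.34 CPM in WT1 to WT4 and 1.93, 3.49, 2.21 and 2.39 CPM in KO1 to KO4. WT1 was 5.88-fold above WT4, the largest distance between any pair of mice in the 44 genes, and the interval was correspondingly wide (log2 fold change -0.52, 95% interval -1.63 to 0.60). Without WT1 its log2 fold change was 0.21. Of the 3 genes with CARE in this branch, Trib3 was higher in KO mice by the unadjusted test and Asns and Chac1 had negative values that did not pass.

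Side by side, the branches had medians on either side of 0 and ranges that overlapped. The 34 XBP1/ATF6 genes had a median log2 fold change of -0.028 (range -0.33 to 0.21, 13 positive and 21 negative, 0 under an unadjusted p of 0.05), and the 5 ATF4 genes 0.098 (range -0.52 to 0.92, 3 positive and 2 negative, 1 under 0.05). Over all genes tested the median was -0.016 and 53.9% were negative. The XBP1/ATF6 median turned to 0.051 without WT2 and 0.022 without KO4, and was -0.067 without KO2. The ATF4 branch median was 0.21 without WT1 and 0.053 without KO1. Mean deviations from each gene's own average, on the log2 scale, differed more between mice than between genotypes, whose means were 0.016 in WT and -0.016 in KO mice for the XBP1/ATF6 branch and -0.080 and 0.080 for the ATF4 branch. For the XBP1/ATF6 branch they were -0.066, 0.166, -0.049 and 0.014 in WT1 to WT4 and -0.079, 0.134, -0.003 and -0.117 in KO1 to KO4. For the ATF4 branch they were 0.444, -0.165, -0.279 and -0.321 in WT1 to WT4 and -0.102, 0.075, 0.186 and 0.161 in KO1 to KO4. The mouse with the highest ATF4 branch value, WT1, was thus below average for the XBP1/ATF6 branch. Chac1 weighed most in this, with a deviation of 1.57 in WT1 against 0.38 for Asns, 0.27 for Ddit3, 0.12 for Atf4 and -0.12 for Trib3.

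**Figure D3:**
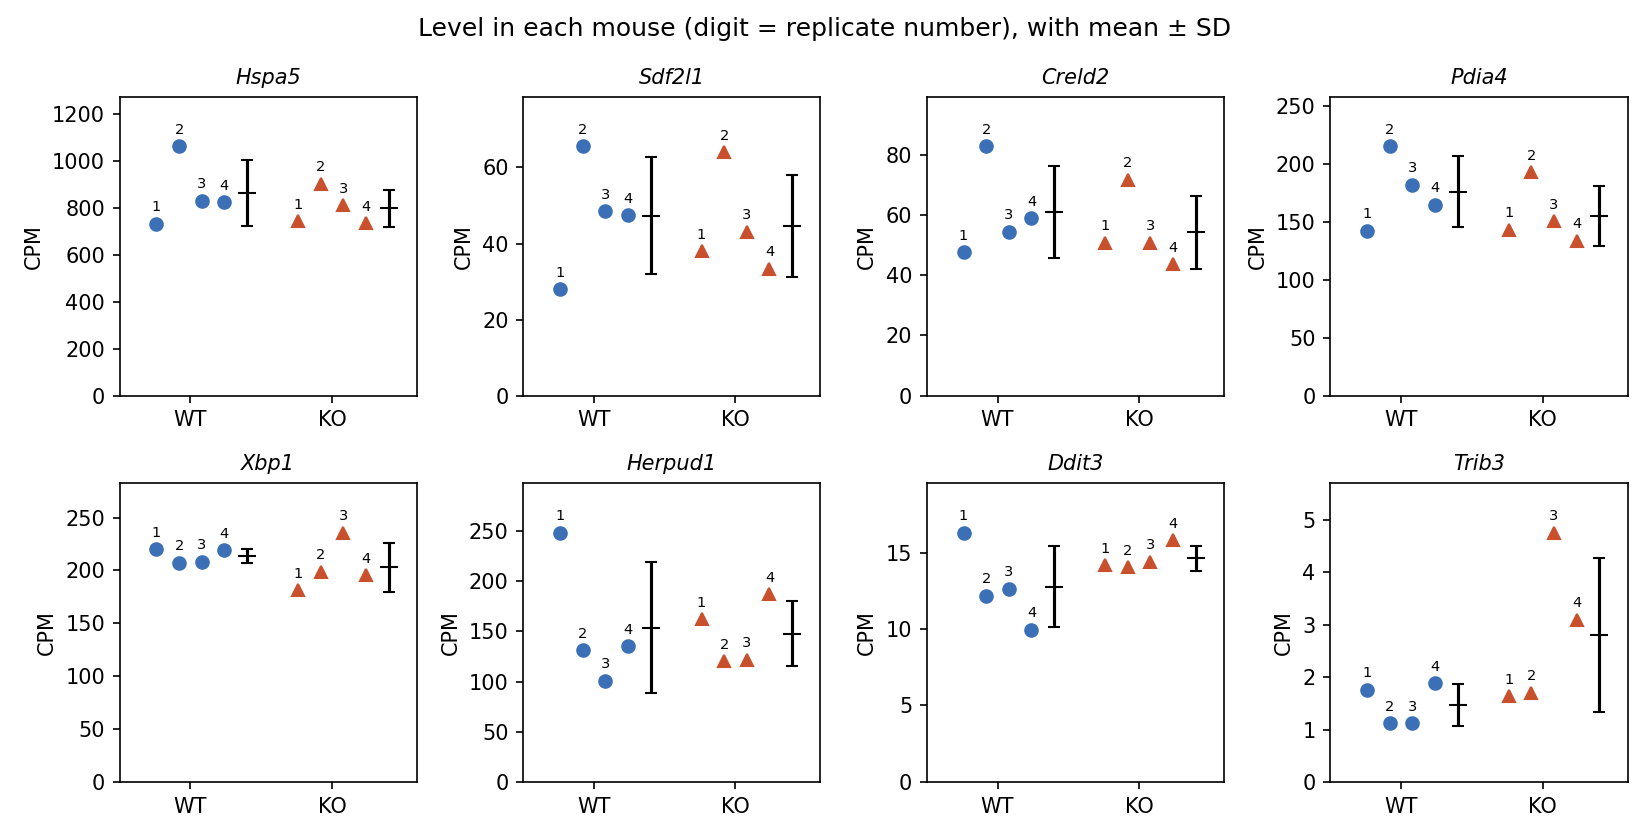
CPM of 8 genes in each mouse, with circles for WT and triangles for KO mice, the replicate number above each point, and the mean ± SD of the 4 mice beside them. Number 2 is the highest of its genotype in Hspa5, Sdf2l1, Creld2 and Pdia4, while in Trib3 only KO3 and KO4 are above the WT mice.

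A pattern shared by many of these genes followed the mice numbered 2 in either genotype. WT2 and KO2 were the 2 highest of the 8 mice in 20 of the 44 genes, against 6.59% of all genes tested. These were most of the lumenal folding set (Hspa5, Hsp90b1, Dnajb11, Dnajc3, Sdf2l1, Manf, Creld2, Calr, Canx, Pdia3, Pdia4, Pdia5 and Pdia6) with Sec61g, Ssr1, Ssr2, Spcs2, Spcs3, Derl1 and Derl2. Within its own genotype WT2 was highest in 24 and KO2 in 26 of the genes, and both held in 22, where the shares of all genes were 28.9%, 23.9% and 10.4%. The count was 20 with RLE scaling and with the deposited FPKM (6.34% and 6.52% of all genes), and 21 with upper-quartile scaling and with the library size alone (7.03% and 11.8% of all genes).

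Differences between replicate numbers were then tested in the fit that holds genotype and number together, a test added after these values had been seen. Under an unadjusted p of 0.05 were 14 of the 44 genes (31.8%), against 12.2% of all genes, and by adjusted p 0 of 44, against 0.0993% of all genes. With no filter on low counts, 3 of the 44 passed by adjusted p, and the share of all genes was not counted there. The 14 were 6 of 9 chaperones (Hspa5, Hsp90b1, Dnajb11, Sdf2l1, Manf and Creld2), 4 of 5 disulfide isomerases (Pdia3, Pdia4, Pdia5 and Pdia6), Calr, Ssr2, Herpud1 and Creb3l1, and 12 of them had WT2 and KO2 on top. Creld2 had the smallest p (0.00504, edgeR). No sensor and no ATF4 branch gene was among them in this fit, but Ern2 passed with no filter on low counts and without the mice numbered 1 or 3, and Chac1 passed with no filter. The count rested on the mice numbered 2: without them it was 2 of 44 (Creb3l1 and Herpud1; 6.33% of all genes), and without the mice numbered 1, 3 or 4 it was 17, 14 and 9 (16.4%, 13.3% and 9.93% of all genes). Of the 11 genes with ERSE or ERSE-II in the promoter, 7 were under 0.05 and 8 had WT2 and KO2 on top. Of the 24 whose promoters held neither, 4 were under 0.05 and 8 had those mice on top. Of the 9 genes whose promoters were not searched, 3 were under 0.05 and 4 had those mice on top. What the replicate number stands for was not given, and its part in the values was not traced to a litter, a day or a preparation.

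**Figure D4:**
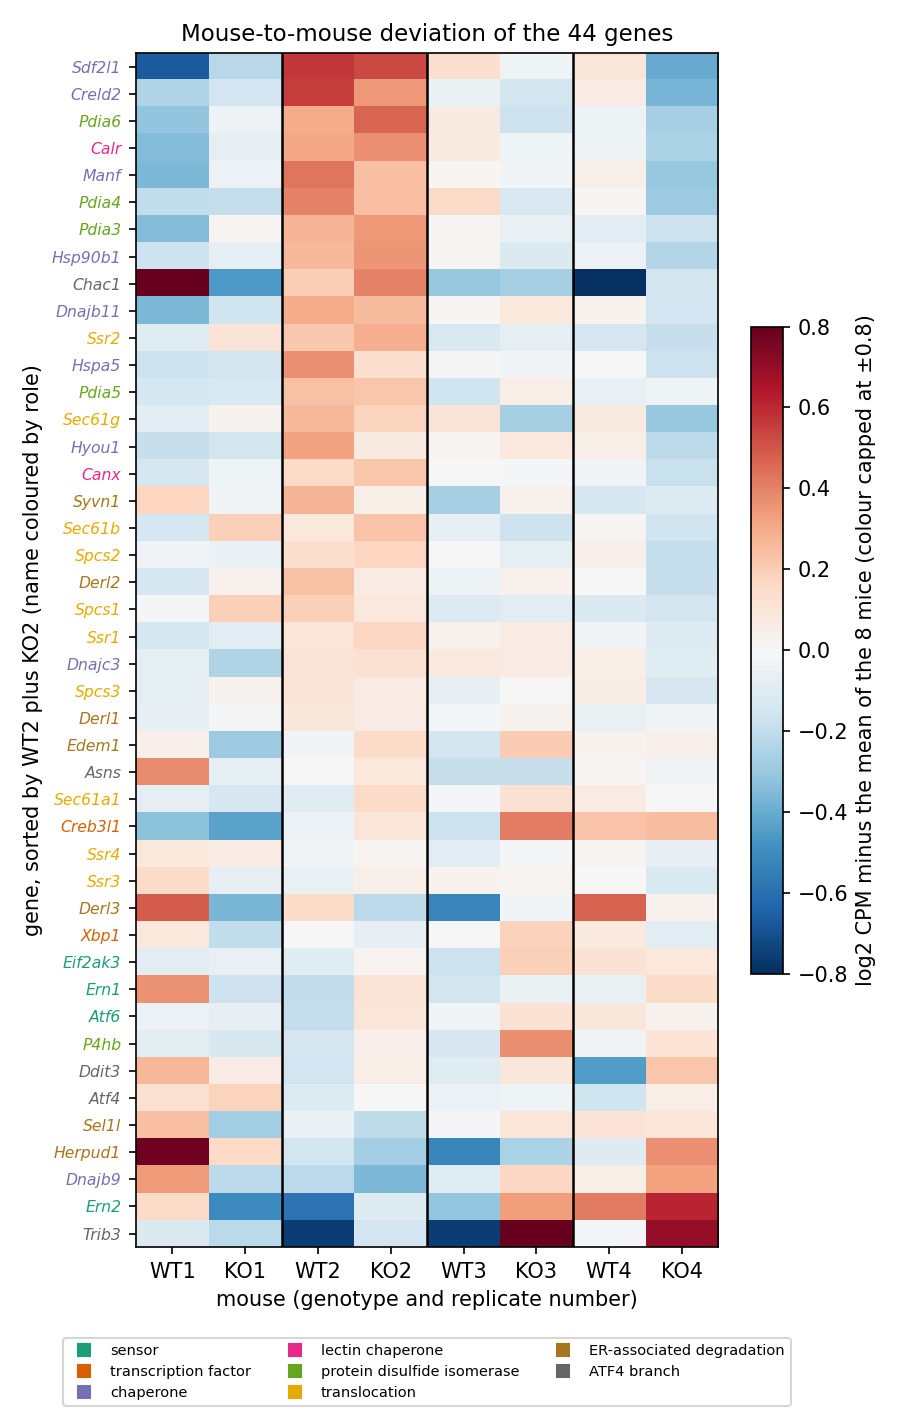
Log2 CPM of the 44 genes in each mouse minus the gene's mean over the 8 mice, with mice ordered by replicate number and genes sorted by the sum of WT2 and KO2; colour is capped at ±0.8. The columns WT2 and KO2 are both above average for the lumenal chaperones and isomerases at the top, and WT1 stands out for Chac1 and Herpud1.

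The rest of the pathway was read through 189 further genes (179 tested). Among them, 5 were higher and 1 lower in KO mice at an unadjusted p under 0.05, where 8.38% of all genes passed, and none by adjusted p (smallest 0.518, edgeR). DESeq2 gave 11 at an unadjusted p under 0.05, and 1463 of the 16109 genes tested. Among 12 further regulators of the response, Tmbim6 (Bax inhibitor 1, an ER membrane protein that restrains IRE1) was higher, with 714, 737, 679 and 751 CPM in WT1 to WT4 and 781, 868, 996 and 927 CPM in KO1 to KO4. All KO mice were above all WT mice (log2 fold change 0.31, unadjusted p = 0.00838, adjusted p = 0.518, edgeR). The exact permutation p of 0.0286, the smallest possible, follows from that separation. In the chaperone and disulfide list 1 of 29 genes was lower, Mogs, the glucosidase that starts glycan trimming, with 145, 174, 165 and 144 CPM in WT1 to WT4 and 143, 136, 119 and 128 CPM in KO1 to KO4 (log2 fold change -0.25, unadjusted p = 0.0205). There too the genotypes did not overlap, though KO1 and WT4 were nearly equal. Of 25 degradation genes 2 were higher, Nploc4 (0.15), a cofactor of the extracting ATPase VCP, and Rnf5 (0.16), a membrane ubiquitin ligase. Of 36 ER to Golgi transport genes 1 was higher, the cargo receptor subunit Mcfd2 (0.22), and of 49 further ATF4 branch genes 1, the alanyl-tRNA synthetase Aars (0.21). Among 28 translocation and glycosylation genes there were 0. The genotypes were fully separated in 6 of the 179 genes, where 4.05% of all genes were. Tmbim6, Mogs, Nploc4 and Rnf5 were among these. With replicate number as a block, Nploc4 and Mcfd2 were no longer under 0.05 (unadjusted edgeR p of 0.0614 and 0.0736). The count over the 179 genes was then 8, where 11.3% of all genes passed. Agr3, Jdp2, Nars and Slc7a5 were newly under 0.05 in that fit. Of the 49 further ATF4 branch genes, 4 passed with the block. Tmbim6 was under 0.05 in every alternative run. The call of Mogs was lost without WT2, WT3, KO3 or KO4, and that of Aars without WT4 or KO2. Rnf5 lost its call with no filter and without WT3, WT4, KO2 or KO3. Upper-quartile scaling ended the calls of Nploc4 and Mcfd2, as did leaving out WT1, WT3, KO2 or KO3; Nploc4 also lost its call with no filter and without WT4 or KO1, and Mcfd2 without WT2. Differences between replicate numbers reached an unadjusted p under 0.05 in 15 of the 179 (8.38%), where 12.2% of all genes did.

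Markers of the secretory and other cells in these crypts are given beside these results, since their sums varied between mice. Summed Paneth markers were 61760, 18160, 23140 and 34260 CPM in WT1 to WT4 and 17580, 9376, 24190 and 32530 CPM in KO1 to KO4, and 0 of 11 passed an unadjusted p of 0.05, though all 11 log2 fold changes were negative (median -0.70). WT1, highest for Chac1 and Herpud1, was highest for Paneth markers, and KO2, high for the folding genes, was lowest. Summed goblet markers were 5099 to 6917 CPM in WT and 6080 to 8717 CPM in KO mice, with 2 of 10 higher and 1 lower and 9 of 10 log2 fold changes positive. The marker Fcgbp alone made up much of each goblet sum, at 2667 to 3595 CPM in WT and 3515 to 4784 CPM in KO mice. KO2 had the highest sum, while WT2, at 6392 CPM, was below WT3 and WT4. Plasma and B cell markers, from another cell type rich in ER, summed to 196.3 to 294.9 CPM in WT and 231.7 to 302.1 CPM in KO mice, with 0 of 14 under 0.05. Enterocyte markers summed to 1921 to 4377 CPM in WT and 2673 to 9627 CPM in KO mice, with 3 of 10 higher, and KO3 and KO4, the highest mice for Trib3, held the highest sums. T and myeloid cell markers summed to 183.7 to 526.0 CPM in WT and 502.4 to 908.4 CPM in KO mice, with 7 of 12 tested higher. KO2 again had the highest sum, and WT2, at 343.5 CPM, was below WT3 and WT4. Stem and proliferating cell markers summed to 5665 to 6622 CPM in WT and 4574 to 5560 CPM in KO mice, with 3 of 10 lower. Of the other lists, 2 of 6 tuft cell markers were lower, 1 of 10 enteroendocrine markers was higher, and 1 of 6 stroma, muscle, blood and pancreas markers was lower. With replicate number as a block, where 11.3% of all genes were under 0.05, so were 3 of 11 Paneth, 5 of 10 goblet, 5 of 10 enterocyte, 9 of 12 T and myeloid, 4 of 6 tuft, 3 of 10 stem and proliferating, 2 of 6 stroma, muscle, blood and pancreas, 0 of 14 plasma and B cell and 0 of 10 enteroendocrine markers. Replicate numbers differed at an unadjusted p under 0.05, where 12.2% of all genes passed, in 7 of 10 goblet, 7 of 12 T and myeloid, 4 of 6 stroma, muscle, blood and pancreas, 3 of 6 tuft, 5 of 10 enterocyte, 4 of 11 Paneth, 2 of 10 stem and proliferating, 2 of 14 plasma and B cell and 1 of 10 enteroendocrine markers. No marker on these lists was at 0 in all mice, and their part in the values of the 44 genes was not tested.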

How the data were processed

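Reads of 8 mice (4 per genotype) were processed by the authors with CASAVA, HISAT2 2.0.5 and featureCounts 1.5.0-p3, per the processing notes. The deposited table holds counts per gene, not normalised, and FPKM, which the authors made by dividing counts by gene length and 1 constant per mouse. The genome build was not given in the sources used here; coordinates of all 44 genes were identical to GENCODE M21 (GRCm38). Columns of the authors' own fold changes and p-values were not used.

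Counts were fitted with edgeR 4.0.16 (R 4.3.3): filterByExpr with a minimum count of 10, TMM, genotype as the only term, quasi-likelihood test, Benjamini-Hochberg adjustment over 16109 genes. Exact permutation tests over the 70 assignments of 8 mice were two-sided (scipy 1.17.1 under Python 3.11.15), and figures used matplotlib 3.10.9. The script was tested on simulated data. Alternatives were RLE and upper-quartile factors, DESeq2 1.42.0, no filter, at least 10 counts in every mouse, limma 3.58.1 on log2(FPKM + 1) and log2(FPKM + 0.1), a replicate block, and leaving out each mouse. Deviations of same-numbered WT and KO mice correlated at 0.129, 0.501, 0.141 and 0.294 for numbers 1 to 4. The numbers were therefore taken to pair the mice. The p-values and intervals are from the fit without the block. Blocked values are given where they change a call, and for Pdia4, whose blocked p was close to the threshold. Counting error is small at this depth except for Trib3, Derl3 and Chac1.

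The 44 genes and all lists were chosen with earlier results of these data known. Named with values in every mouse were the sensors, Xbp1, Creb3l1, the ATF4 branch, Hspa5, genes past an unadjusted p of 0.05, and the 3 highest and 3 lowest by FPKM; further genes were named after their values were seen, for the pattern by replicate number. Of the further pathway lists, genes past an unadjusted p of 0.05 were named, at most 3 per direction and list.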

Additional observations from a re-analysis of the deposited data

Results flagged for a closer look

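In groups of 4 mice, the highest or lowest value was compared with the rest by Dixon's ratio at its 95% critical value. Of 88 groups (44 genes in either genotype) 2 passed, where chance alone gives about 4.4, or 1 in 20. Ssr2, a subunit of the translocon-associated complex, was at 227.2 CPM in WT2, against 178.34 to 182.98 CPM in the other WT mice (ratio 0.905). Derl2, a derlin of ER-associated degradation, was at 47.7 CPM in KO4, against 55.5 to 56.7 CPM in the other KO mice (ratio 0.869). WT2 is also one of the mice in which the lumenal folding genes were highest, and KO4 was the lowest of the 8 mice in 12 of the 44 genes (27.3%, against 11% of all genes tested).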

How the results depend on the processing

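No gene of the 44 reached an adjusted p of 0.05 under any of the 16 alternatives (smallest 0.291). Of 704 values, 616 kept direction and side of the unadjusted threshold, 7 fell short of it, 4 newly passed it and 77 changed sign, 57 of these with a mouse left out. At an unadjusted p under 0.05 the count was 0 by limma on log2(FPKM + 1) (all genes: 1320), by limma on log2(FPKM + 0.1) (1315) and with the replicate block (1815), and 0 to 3 with a mouse left out (846 to 2133). The replicate block changed the call of Trib3 alone among the 44. Full separation held in 0 to 2 genes with a mouse left out (all genes: 915 to 2019, against 652 with all mice). Genes of the further pathway lists past an unadjusted p of 0.05 numbered 11 of 179 by DESeq2 (all genes: 1463 of 16109), 8 with the replicate block (1815 of 16109), and 3 without KO2 (1265 of 16368) to 15 without KO1 (2133 of 16428), against 6 (1350 of 16109). Genes differing between replicate numbers numbered 9 of 44 by limma on log2(FPKM + 1) (11.3% of all genes), 9 by limma on log2(FPKM + 0.1) (11.5%), and 2 (6.33%) to 17 (16.4%) with a number left out. With no filter there were 15 by unadjusted p (10.2% of all genes). In that fit 3 of the 44 passed by adjusted p, for which the share of all genes was not counted. All-gene counts by adjusted p were 93 by DESeq2 against 1. The causes of these shifts were not tested.

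With all mice kept, values near 0 changed sign as follows. Calr was at 0.0029 (RLE), 0.0029 (DESeq2), 0.0054 (no filter), 0.0018 (10 counts in every mouse), 0.0075 and 0.0076 (limma). Ssr4 was at 0.0035, 0.0032, 0.0059, 0.0016, 0.0073 and 0.0075 under the same alternatives. Herpud1 was at 0.0084 and 0.0092 (limma) and 0.0013 (replicate block), and Pdia6 at -0.0067 (upper-quartile) and -0.0046 (replicate block). Upper-quartile factors put Canx at -0.0117, Dnajb11 at -0.0113 and Ern1 at -0.0057. With a mouse left out, log2 fold changes that crossed 0 ranged as follows: Ern1 (-0.0527 to 0.1483), Ern2 (-0.0224 to 0.3587), Hspa5 (-0.1829 to 0.0043), Hsp90b1 (-0.1616 to 0.0624), Dnajb9 (-0.1533 to 0.0871), Dnajb11 (-0.1018 to 0.1142), Sdf2l1 (-0.3112 to 0.1109), Manf (-0.1949 to 0.0671), Creld2 (-0.3306 to 0.0147), Calr (-0.1361 to 0.1088), Canx (-0.0721 to 0.0601), Pdia3 (-0.0444 to 0.1808), Pdia5 (-0.0087 to 0.1528), Pdia6 (-0.1707 to 0.113), Sec61b (-0.0097 to 0.1179), Ssr1 (-0.0324 to 0.0577), Ssr2 (-0.0137 to 0.1656), Ssr4 (-0.0239 to 0.0264), Spcs1 (-0.0406 to 0.0938), Spcs3 (-0.0475 to 0.0191), Herpud1 (-0.2055 to 0.2731), Syvn1 (-0.117 to 0.0539), Derl2 (-0.0797 to 0.0472), Asns (-0.1829 to 0.0053) and Chac1 (-0.7935 to 0.2083). Chac1, at -0.5171 in the main fit, was the furthest from 0 of the genes that changed sign. With 4 mice per genotype, the printed intervals bound the differences that the data leave possible in the fit without the block.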
